A study of Homo sapiens with 12 samples.

Results

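MYCN and the genes of the MYC-MAX network were followed through bulk RNA-sequencing of the neuroblastoma (NB) cell line SK-N-DZ. The 10 genes, MYCN, MYCNOS, MYC, MAX, MNT, MGA, MXD1, MXD3, MXD4 and MXI1, were taken by symbol from a table of 43769 genes. All of them had a row, and 9 passed the filter on low counts and were tested. The network works through pairs: MYC-family activators bind DNA at E-boxes only as partners of MAX, and the MXD proteins, MXI1, MNT and MGA compete for MAX and recruit corepressors. N-MYC, the protein of MYCN, is the activator that childhood neuroblastoma amplifies, and MYCN-amplified tumors typically switch its relative MYC off.

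SK-N-DZ is a human MYCN-amplified line, and every library came from clonal cells that carry a doxycycline-inducible hairpin against ARID1A, a DNA-binding subunit of the SWI/SNF chromatin remodeler. The 4 groups of 3 libraries each were untreated cells (C, labelled WT), cells given doxycycline for 4 days (D, labelled shARID1A), cells given interferon gamma for 24 hours (I, labelled WT) and cells given both (DI, labelled shARID1A). No group had doxycycline without the hairpin, so a doxycycline effect and a hairpin effect cannot be told apart. The sample titles do not name the clone or the hairpin of each library. The labels do not say whether replicates were separate cultures, so the p-values measure the spread between these libraries, which may be technical.

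Libraries held 16469832 to 21790869 counts. Of 9 neuroblast markers, all had counts, with a summed level of 3462.3 to 5031.7 CPM (counts scaled to library size by TMM) per library, and edgeR called 0 of them in each comparison of groups, with 1 in each at an unadjusted p under 0.05. Over all genes 14.2%, 12.2%, 8% and 6.24% passed that in D vs C, DI vs I, I vs C and DI vs D. PHOX2A, a noradrenergic factor, lay higher with interferon gamma (log2 0.40 for I vs C and 0.36 for DI vs D, edgeR adjusted p = 0.0517 and 0.113), past the threshold with the replicate number as a block (edgeR adjusted p = 0.0115 and 0.0274) and in DESeq2 (adjusted p = 0.0036 and 0.0167). TH, which starts catecholamine synthesis, had 3.13 to 74.7 CPM in C and 0.695 to 7.04 CPM in D, and its differences of -3.78 (D vs C) and -3.85 (DI vs I) on the log2 scale passed in none of these fits (edgeR adjusted p = 0.219 and 0.268, with the block 0.151 and 0.142). With the block HAND2 passed as lower in both doxycycline comparisons (edgeR adjusted p = 0.00603 and 0.0151) and DBH in D vs C (edgeR adjusted p = 0.0433). The block thus passed 2, 1, 1 and 1 of the 9 markers in these comparisons, in the order above. Of all genes it passed 13.9%, 10.5%, 6.02% and 4.46%. DESeq2 called PHOX2A alone, in I vs C and DI vs D, where it called 2.99% and 2.28% of its genes.

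The 6 markers of other cell types summed to 2.8 to 25.2 CPM, and the T cell gene CD3E and the endothelial gene PECAM1 were at 0 throughout. COL1A2, a fibroblast collagen, had 2.34, 6.01 and 2.31 CPM in C and 9.2, 23.9 and 5.29 CPM in I, and C and I overlapped. Its difference of 1.84 (log2) for I vs C passed in DESeq2 (adjusted p = 0.0102) and with the block (edgeR adjusted p = 0.0302), not in edgeR without it (adjusted p = 0.148). In I vs C DESeq2 called 2.99% of its genes and the block 6.02% of all genes. The part of these markers in the network values was not tested.

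ARID1A, the target of the hairpin, had 197, 186 and 165 CPM in C1, C2 and C3 and 197, 159 and 158 CPM in D1, D2 and D3, so these groups overlapped. It had 192, 203 and 194 CPM in I and 151, 133 and 148 CPM in DI, with no overlap. By edgeR's quasi-likelihood test ARID1A differed by -0.09 (log2, adjusted p = 0.788) for D vs C and by -0.44 (adjusted p = 0.115) for DI vs I. The latter passed with the replicate number as a block (edgeR, adjusted p = 0.0111) and in DESeq2 (adjusted p = 0.016). The mRNA therefore does not set the libraries labelled D apart from C, and D is used below as a label.

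Start-site windows of the 3 genes that carry the main differences are shown first: MYCN (lower with interferon gamma), MXD3 (lower with doxycycline) and MNT (higher with doxycycline). Each runs from 250 bases before to 50 bases after a RefSeq start (GRCh38.p14), 5′ to 3′ on the gene's strand, at chr2:15940300-15940599 (+) for MYCN, chr5:177312703-177313002 (-) for MXD3 and chr17:2401011-2401310 (-) for MNT. Capitals mark matches to the E-box CACGTG or to the E2F letters TTTGGCGC and TTTCGCGC, searched on both strands.
MYCN: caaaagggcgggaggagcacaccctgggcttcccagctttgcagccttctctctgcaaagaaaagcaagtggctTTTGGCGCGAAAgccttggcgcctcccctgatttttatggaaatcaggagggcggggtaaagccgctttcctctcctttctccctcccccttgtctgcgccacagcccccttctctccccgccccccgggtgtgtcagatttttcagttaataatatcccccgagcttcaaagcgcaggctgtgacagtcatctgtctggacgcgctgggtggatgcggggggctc
MXD3: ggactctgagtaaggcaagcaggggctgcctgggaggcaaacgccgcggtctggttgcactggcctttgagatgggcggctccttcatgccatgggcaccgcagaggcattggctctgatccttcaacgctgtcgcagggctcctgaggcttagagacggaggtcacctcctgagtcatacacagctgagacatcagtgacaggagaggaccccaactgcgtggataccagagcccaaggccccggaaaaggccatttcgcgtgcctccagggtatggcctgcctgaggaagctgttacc
MNT: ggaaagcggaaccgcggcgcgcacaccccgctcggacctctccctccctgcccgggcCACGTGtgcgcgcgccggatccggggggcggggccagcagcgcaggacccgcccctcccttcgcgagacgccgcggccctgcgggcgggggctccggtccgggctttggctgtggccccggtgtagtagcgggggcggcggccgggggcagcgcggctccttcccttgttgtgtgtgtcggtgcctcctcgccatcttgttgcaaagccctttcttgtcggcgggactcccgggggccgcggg

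The MYCN window held TTTGGCGC at -176 from the start and, overlapping it on the other strand, TTTCGCGC at -172. A window of MGA also held TTTGGCGC, at -65. TTTGGCGC and TTTCGCGC occurred in 0.652% and 0.515% of all 35116 windows of the same length. The E-box was in the MNT window at -193 and in the MXD4 window at -238, against 7.26% of all windows. The MXD3 window held none of the letters searched. Letters of an interferon element were searched too: GAAA followed by any 2 bases and GAAA, the core of the interferon-stimulated response element, was in 3.57% of windows and in none of the 15 windows of 9 network genes.

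Per length of exon, MYCN far exceeded the rest of the network in untreated cells. The mean level in C was 470 ± 49 CPM per kb (SD, n = 3), the 59th highest of 15828 tested genes and the 49th of 13500 protein-coding ones. MXI1, an antagonist that pairs with MAX, came next at 28.1 ± 6.62 CPM per kb. MYCNOS, the antisense transcript that starts inside MYCN, had 17.5 ± 1.71 CPM per kb and MXD4 16.7 ± 0.827 CPM per kb, and these neighbours in the order overlapped.

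MXD3 followed at 11.2 ± 0.395 CPM per kb and MAX, the shared partner, at 10.1 ± 0.341 CPM per kb. MNT, the most widely expressed antagonist, had 7.79 ± 0.605 CPM per kb. MXD1 with 4.58 ± 0.692 CPM per kb and MGA, the largest of these proteins, with 4.48 ± 0.107 CPM per kb again overlapped. MYCN mRNA per length was thus 40.3 to 49.8 times that of MAX in the C libraries, 42.6 to 55.6 times in D, 25.8 to 32 times in I and 27.9 to 43 times in DI. Length here is the union of all annotated exons, 2602 bases for MYCN and 4430 for MAX. Which of these exons the cells use was not tested, so the order and the ratios hold for that length only. The 5 antagonists MXD1, MXD3, MXD4, MXI1 and MNT together gave 4.55 to 8.77 times the MAX level over all 12 libraries.

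**Figure D1:**
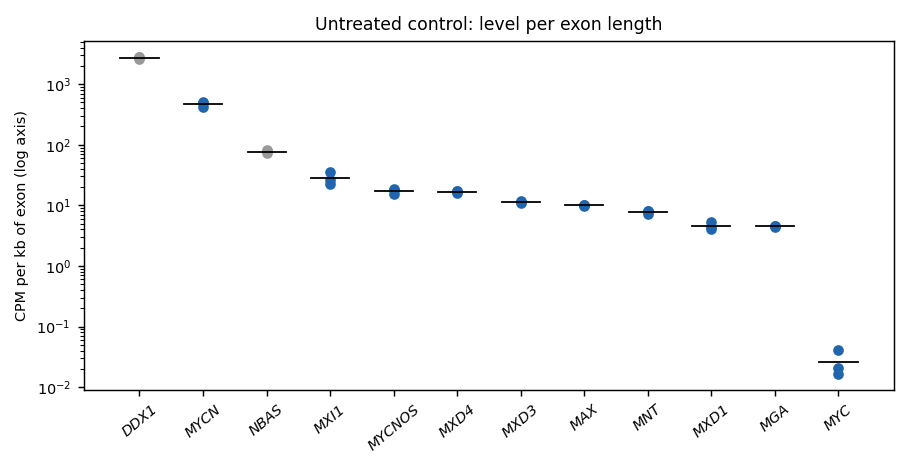
Level of each network gene (blue) and of DDX1 and NBAS, neighbours of MYCN on chromosome 2 (grey), in CPM per kb of exon on a log axis; points are the 3 C libraries and bars their mean. MYCN at 470 CPM per kb lies above every other network gene, DDX1 lies above MYCN, and MYC lies lowest at 0.0261 CPM per kb.

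MYC was close to undetected. Its reads numbered 0 to 7 per library and 24 in all, against 245878 for MYCN, and 10 of the 12 libraries had 3 counts or fewer. The libraries above that were D3 with 4 and DI3 with 7 counts, and no fold change was computed. Whether counts were deduplicated with molecular identifiers is not stated in the sources used here, so this floor of 3 counts covers counting error only.

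DDX1, an RNA helicase gene often co-amplified with MYCN, reached 2742.7 ± 133 CPM per kb in C, rank 8 of all tested genes. Its nearest end lies 309 kb from the MYCN start. NBAS, a Golgi-to-ER transport gene whose nearest end lies 379 kb from that start, stood at 77.2 ± 4.61 CPM per kb, rank 466. DDX1 spanned 9942.3 to 11691.7 CPM over the 12 libraries and its log2 fold changes lay between -0.04 and 0.05 in the 4 comparisons of groups. NBAS spanned 630 to 959 CPM and differed by 0.07 to 0.14 (log2). Neither was called in any comparison by edgeR, with adjusted p of 0.844 for DDX1 in D vs C and 0.886 for NBAS in DI vs I as the lowest.

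MYCN mRNA was lower with interferon gamma than without it in all 6 same-numbered pairs of libraries. It had 1330.4, 1081.5 and 1253.2 CPM in C1, C2 and C3 and 1029.7, 879 and 886 CPM in I1, I2 and I3. With doxycycline, D had 1495.7, 1052.4 and 1212.3 CPM and DI had 1075.3, 772 and 895 CPM. C and I did not overlap, whereas DI1 lay above D2.

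Replicate number 2 gave the lowest MYCN level in each of the 4 groups. Within a number, the I level was 0.774, 0.813 and 0.707 of the C level, and the DI level was 0.719, 0.734 and 0.738 of the D level. Over all tested genes, 11.3% were lower in all 6 such pairs and 12.3% were higher. In bulk RNA, fewer cells of a type and less RNA per cell cannot be told apart.

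In edgeR's quasi-likelihood test without a block, MYCN differed by -0.39 ± 0.16 (log2, SE; adjusted p = 0.478) for I vs C and by -0.46 ± 0.16 (adjusted p = 0.408) for DI vs D. With the replicate number as a block the estimates were -0.39 and -0.45 and both passed, with edgeR adjusted p of 0.00902 and 0.00419. DESeq2 without a block gave adjusted p of 0.401 and 0.251. Of all tested genes, edgeR called 2.21% in I vs C and 1.72% in DI vs D without the block, and 6.02% and 4.46% with it.

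Doxycycline gave no comparable difference in MYCN. The libraries labelled D differed from C by 0.04 (log2, 95% interval -0.31 to 0.38, edgeR adjusted p = 0.95), and DI from I by -0.03 (interval -0.37 to 0.32, adjusted p = 0.976). The D level was 1.12, 0.973 and 0.967 of the C level at numbers 1, 2 and 3. The block did not move either value past the threshold (edgeR adjusted p = 0.837 and 0.789). The MYCN response to interferon gamma with and without doxycycline differed by -0.06 (interaction, interval -0.55 to 0.42, edgeR adjusted p = 1).

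MYCNOS had the same arrangement under interferon gamma. It had 43.9, 37.6 and 45.4 CPM in C, 33.1, 26.1 and 32.9 CPM in I, 50.7, 40.8 and 59.1 CPM in D and 42.2, 29.4 and 40.7 CPM in DI. Every I library lay below every C library, and D and DI overlapped. The difference was -0.46 for I vs C (edgeR adjusted p = 0.441, with the block 0.00796) and -0.42 for DI vs D (edgeR adjusted p = 0.69, with the block 0.0163).

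With doxycycline MYCNOS was 1.15, 1.09 and 1.3 times the C level and 1.27, 1.13 and 1.24 times the I level at numbers 1, 2 and 3. These differences of 0.25 and 0.29 (log2) missed the threshold with the block too (edgeR adjusted p = 0.091 and 0.0653). MYCN per length was 25.6 to 28.1 times MYCNOS in C, 19 to 27.4 times in D, 25 to 31.3 times in I and 20.4 to 24.3 times in DI. The genes share 98 exon bases on opposite strands, 4.06% of MYCNOS, and it is not stated whether counting used strand, so reads in that stretch cannot be assigned to one of them.

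MAX, the partner that activators and antagonists both need, lay higher in I than in the other groups. It had 45.5, 45.6 and 42.9 CPM in C, 45.8, 42.1 and 47.9 CPM in D, 54.7, 57.9 and 48.9 CPM in I and 42.6, 47.1 and 44.7 CPM in DI. I did not overlap C or DI. The estimates were 0.27 for I vs C and -0.27 for DI vs I (log2), and neither passed in edgeR (adjusted p = 0.375 and 0.293, with the block 0.121 and 0.08).

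**Figure D2:**
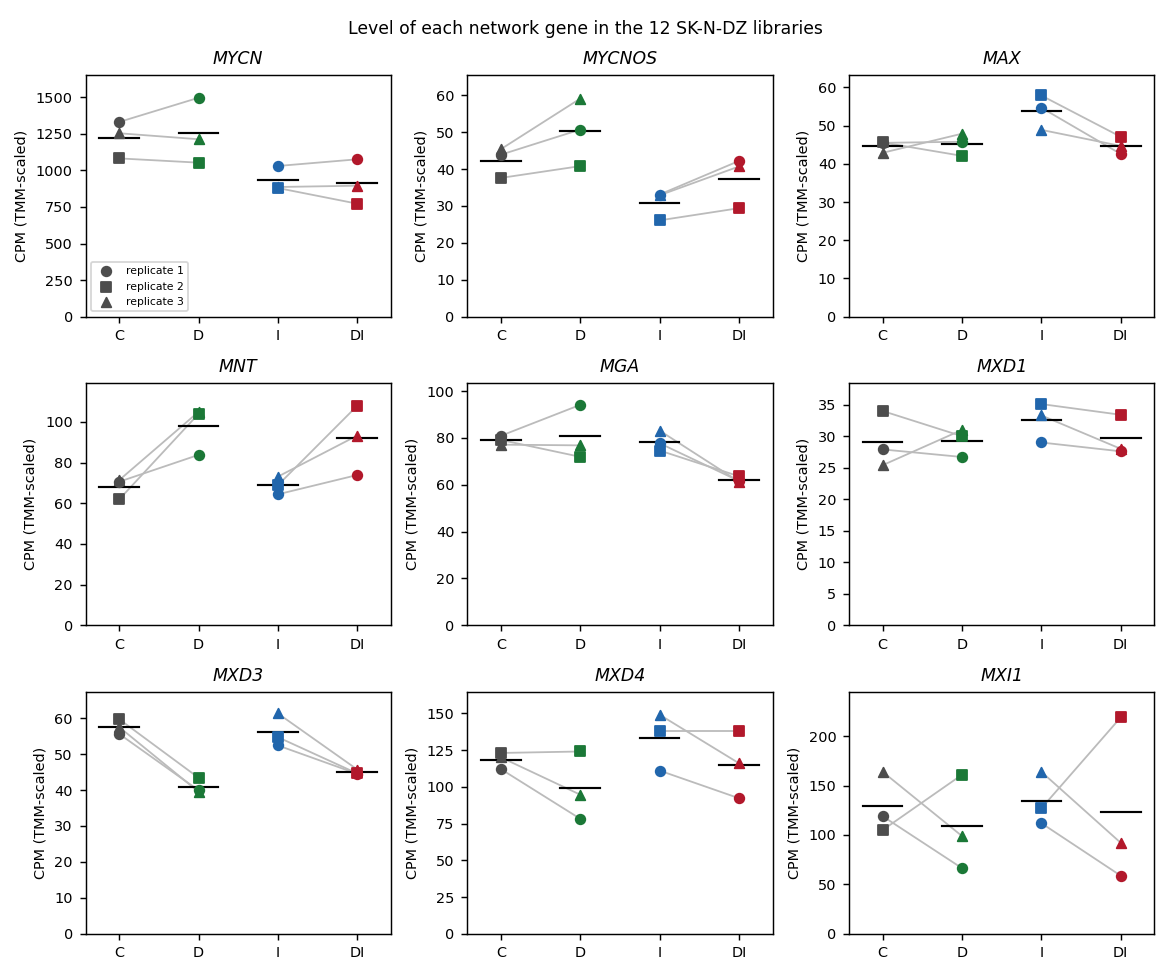
Level in CPM of the 9 tested network genes in the 12 libraries, by group; symbols give the replicate number, grey lines join libraries of one number within a pair of groups and black bars are group means. MYCN and MYCNOS lie lower in I and DI, MXD3 lies lower and MNT higher in D and DI, and MXI1 splits by replicate number within D and DI.

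MXD3, an antagonist found in proliferating cells and linked to the cell cycle, was the network gene that edgeR called without the block in D vs C. It had 55.6, 59.7 and 57.5 CPM in C and 39.9, 43.4 and 39.5 CPM in the libraries labelled D, with a gap between the groups. In I it had 52.4, 54.7 and 61.3 CPM and in DI 44.5, 44.6 and 45.7 CPM, again without overlap. The D level was 0.717, 0.727 and 0.687 of the C level at the 3 numbers.

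MXD3 fell by 0.49 on the log2 scale for D vs C (SE 0.091, edgeR adjusted p = 0.0287), a level of 0.711 times that in C. It was 1 of 9 network genes called, where 1.23% of all tested genes were called. The block gave an edgeR adjusted p of 0.003 and DESeq2 an adjusted p of 0.000198. The call rested on the full set of libraries, since it was lost when any one of C1, C2, C3, D1, D2 or D3 was left out, with estimates of -0.54 to -0.47 and edgeR adjusted p of 0.0608 to 0.123. Under interferon gamma the difference was -0.32 (SE 0.091), which passed with the block (edgeR adjusted p = 0.0264) and not without it (edgeR adjusted p = 0.171), and the interaction was 0.17 (edgeR adjusted p = 1).

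Of the exon bases of MXD3, 40.4% are shared with other annotated genes, 22.5% with PRELID1 on the opposite strand and 18% with RAB24 on its own strand. These genes had their own counts: PRELID1 differed by -0.03 (edgeR adjusted p = 0.973) and RAB24 by 0.31 (edgeR adjusted p = 0.628) for D vs C. PRELID1 ran at 81.7 to 90.7 CPM in C and 71.8 to 94.9 CPM in D, and these overlapped. How reads in the shared bases were assigned is not given in the sources used here, so the level of MXD3 is uncertain to that extent.

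MNT lay higher with doxycycline. It had 70.6, 61.9 and 71.4 CPM in C, 83.8, 104 and 105 CPM in D, 64.4, 68.9 and 73.1 CPM in I and 73.9, 108 and 93.3 CPM in DI. Each group with doxycycline lay wholly above its counterpart without it, and number 1 gave the smallest ratio in both, 1.19 and 1.15, against 1.68 and 1.57 at number 2.

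The MNT estimates were 0.52 for D vs C and 0.42 for DI vs I (log2, SE 0.14 each). Neither passed in edgeR without the block (adjusted p = 0.122 and 0.262) and both passed with it (edgeR adjusted p = 0.0166 and 0.0467). DESeq2 called the first (adjusted p = 0.0412) and not the second (adjusted p = 0.178). An antisense gene covers 12.2% of the exon bases of MNT and was not analysed here.

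Across the doxycycline comparisons, groups did not overlap for 2 of 9 network genes in D vs C, MNT and MXD3, where 19.2% of all tested genes had this. The same held for 4 genes in DI vs I (MNT higher, MAX, MGA and MXD3 lower), against 16.6% of all genes, for 3 in I vs C (MYCN and MYCNOS lower, MAX higher), against 15.1%, and for 2 in DI vs D (MGA lower, MXD3 higher), against 9.55%. A two-sided exact permutation test of 3 against 3 libraries gives 0.1 for each, the smallest p it allows.

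MGA, which has both a MAX-binding and a T-box domain and sits in a Polycomb complex, was lowest where both agents were given. It had 80.9, 79.1 and 77.1 CPM in C, 94.1, 71.9 and 76.8 CPM in D, 77.7, 74.6 and 83.1 CPM in I and 61.6, 63.6 and 61.3 CPM in DI. All DI libraries lay below all other libraries. The estimates were -0.34 for DI vs I (edgeR adjusted p = 0.206, with the block 0.0412) and -0.38 for DI vs D (edgeR adjusted p = 0.154, with the block 0.0414).

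Without the second agent MGA differed little, by 0.03 for D vs C and -0.01 for I vs C (log2). The interaction of the agents was -0.37 (interval -0.69 to -0.05) with an unadjusted p of 0.0284 in edgeR's quasi-likelihood fit, and it did not survive adjustment over 15828 genes (edgeR adjusted p = 1). DI is also the group with the lowest ARID1A mRNA, and the part of this in the MGA value was not tested.

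MXI1 split by replicate number among the libraries with doxycycline. It had 119, 105 and 164 CPM in C, 66.4, 161 and 98.9 CPM in D, 112, 127 and 164 CPM in I and 58.8, 219 and 92.1 CPM in DI. The D level was 0.557 and 0.604 of the C level at numbers 1 and 3 and 1.53 times it at number 2, and under interferon gamma the corresponding ratios were 0.526, 0.561 and 1.73. D2 and DI2 thus stand apart from the other doxycycline libraries, and the group estimates of -0.25 and -0.12 (SE 0.44 each) have intervals of -1.22 to 0.72 and -1.09 to 0.85. Without number 2 in all groups, an alternative chosen after the data were seen, MXI1 was -0.79 for D vs C against -0.87 for DI vs I and was not called (edgeR adjusted p = 0.286 and 0.272).

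MXD4, an antagonist of resting and differentiating cells, had 112, 123 and 120 CPM in C, 78.2, 124 and 94.6 CPM in D, 111, 138 and 149 CPM in I and 92.2, 138 and 116 CPM in DI. At number 2 its D level was 1.01 of C, against 0.701 and 0.786 at numbers 1 and 3. MXD1, an antagonist induced during differentiation, kept to 25.4 to 35.1 CPM over all libraries. Neither was called in any comparison by edgeR, by the block or by DESeq2.

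Counted over the network, edgeR called 1 of 9 genes for D vs C, and it called 0 in DI vs I, I vs C, DI vs D and the interaction. At an unadjusted p under 0.05 the counts were 2, 4, 3, 3 and 1, where 14.2%, 12.2%, 8%, 6.24% and 0.625% of all genes passed that. With the block, counts were 2, 3, 2, 3 and 0, where 13.9%, 10.5%, 6.02%, 4.46% and 0% of all genes were called, and DESeq2 called 2 in D vs C and 0 in the others, where it called 4.75%, 2.93%, 2.99%, 2.28% and 0.00377% of its genes in the same order. The edgeR share over all genes was 0.67% in DI vs I and 0% in the interaction. D vs C and I vs C share the C libraries, and DI enters both DI vs I and DI vs D, so these counts are not independent. Over the 9 genes the log2 fold changes had medians of 0.02, -0.13, 0.02 and -0.02 in D vs C, DI vs I, I vs C and DI vs D, beside -0.0012, -0.0068, -0.0081 and -0.012 over all tested genes.

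**Figure D3:**
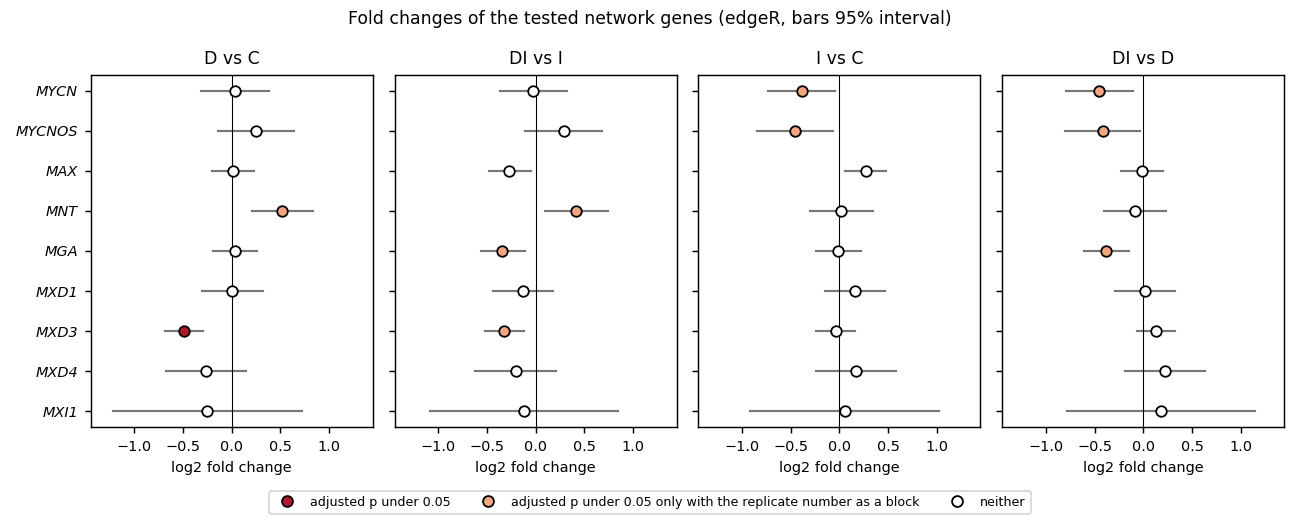
Log2 fold change of the 9 tested network genes in the 4 comparisons of groups (edgeR quasi-likelihood fit without a block), with bars for the 95% interval. MXD3 at -0.49 in D vs C is filled red as the 1 gene past an adjusted p of 0.05, and orange marks the genes past it only with the replicate number as a block, MYCN and MYCNOS among them in I vs C and DI vs D.

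The genes whose level followed MYCN most closely over the 12 libraries were NOP16 (Pearson r = 0.955 of log2 CPM), MRTO4 (0.951), FHL2 (0.949), WWC1 (0.947) and DDX10 (0.943), out of 10136 genes with a mean of at least 10 CPM. NOP16 and MRTO4 are nucleolar ribosome assembly factors, FHL2 is a LIM-domain coregulator, WWC1 a Hippo pathway scaffold and DDX10 an RNA helicase. The values are descriptive, since the libraries share groups and replicate numbers. Most opposite was DYRK1B, a kinase of resting cells, at -0.97. It had 50.5, 60.5 and 54.2 CPM in C, 46.8, 69 and 50 CPM in D, 72.4, 88.4 and 81.3 CPM in I and 65, 91.8 and 77.8 CPM in DI, and so I and C did not overlap.

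Among the network genes themselves, MYCNOS came closest at 0.793, followed by MGA at 0.62. MXD4 lay at -0.752, MXD1 at -0.658 and MXI1 at -0.492, whereas MAX (-0.353), MXD3 (-0.183) and MNT (-0.174) lay nearer 0.

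**Figure D4:**
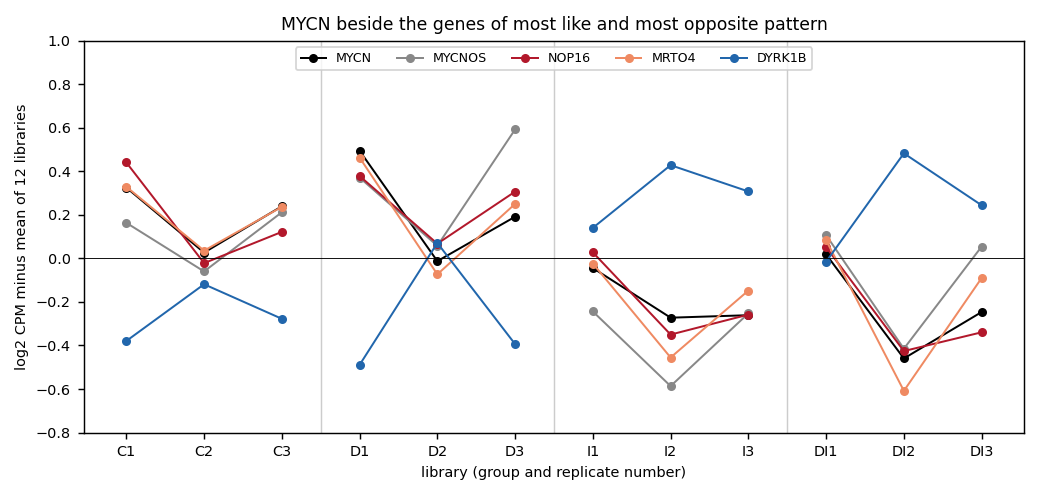
Log2 CPM of MYCN, MYCNOS, NOP16, MRTO4 and DYRK1B minus the mean of the 12 libraries, by library in the order C, D, I, DI; lines join the points of one gene within a group and carry no order in time. MYCN, NOP16 and MRTO4 lie above 0 in most C and D libraries and below it in most I and DI libraries, with DYRK1B reversed.

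Genes of ribosome biogenesis, the best known class of MYC-activated genes, leaned the same way as MYCN under interferon gamma. All 22 listed genes lay below 0 in I vs C, with a median of -0.21 (log2), and 21 of 22 in DI vs D, with a median of -0.25, where 51.6% and 52.9% of all tested genes lay below 0. In edgeR 0 of them passed in either comparison, with unadjusted p under 0.05 for 4 and 5 of them, where 8% and 6.24% of all genes passed that, and DESeq2 called 0. With the block 3 passed in each, where 6.02% and 4.46% of all genes did: MRTO4, WDR12 and DKC1 in I vs C and WDR12, MRTO4 and NOP16 in DI vs D.

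MRTO4 illustrates the size of these differences, with 113, 92.2 and 106 CPM in C and 88.5, 65.6 and 81.2 CPM in I. It was -0.40 (log2) in I vs C, with an edgeR adjusted p of 0.681 without the block and 0.0102 with it. I and C did not overlap, and number 2 was lowest in both groups, as for MYCN. The doxycycline comparisons gave medians of 0.06 and 0.10 for this list, with 0 called by edgeR in both and 2 and 0 at an unadjusted p under 0.05, whereas DESeq2 called 1 and 0. Over all genes 14.2% and 12.2% passed the unadjusted threshold in D vs C and DI vs I, and DESeq2 called 4.75% and 2.93%. The block called UTP20 and POLR1A as higher in D vs C, where it called 13.9% of all genes.

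Growth and cell cycle targets, such as CDK4, the MCM helicase subunits and CAD, had 22 of 23 listed genes tested. Of these 20 lay below 0 in I vs C (median -0.21) and 19 in DI vs D (median -0.11), and edgeR called 0 in any comparison, with 7, 8, 6 and 1 at an unadjusted p under 0.05 in D vs C, DI vs I, I vs C and DI vs D. Over all genes 14.2%, 12.2%, 8% and 6.24% passed that. DESeq2 called 2, 1, 1 and 0: CAD as higher and the glycolytic enzyme gene ENO1 as lower in D vs C, TERT as higher in DI vs I and MCM6 as lower in I vs C. DESeq2 called 4.75%, 2.93%, 2.99% and 2.28% of its genes in these comparisons. ENO1 was -1.06 (log2) in D vs C, with a DESeq2 adjusted p of 0.0208.

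With the block 8 of these 22 genes passed in D vs C, against 13.9% of all genes: CAD, ID2, E2F2 and CDC25A as higher and PTMA, NME1, LDHA and ENO1 as lower. In DI vs I 7 passed, against 10.5%: ID2, CAD, TERT, MCM3 and E2F2 as higher and PTMA and NME1 as lower. MCM3, E2F1 and MCM6 passed as lower in I vs C, against 6.02%, and CAD as lower in DI vs D, against 4.46%.

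ODC1, the rate-limiting enzyme of polyamine synthesis and a classic MYC target, lay higher with doxycycline. It had 444, 390 and 441 CPM in C, 783, 539 and 854 CPM in D, 388, 284 and 307 CPM in I and 664, 420 and 706 CPM in DI. D did not overlap C and DI did not overlap I. The estimates were 0.77 for D vs C and 0.87 for DI vs I, past the threshold with the block (edgeR adjusted p = 0.00442 and 0.00297) and in DESeq2 (adjusted p = 0.0239 and 0.00896), and not in edgeR without the block (adjusted p = 0.129 and 0.118). Of the 13 polyamine genes edgeR called 0 in each comparison, with 3, 3, 1 and 0 at an unadjusted p under 0.05, and the single DESeq2 call in each doxycycline comparison was ODC1. Over all genes 14.2%, 12.2%, 8% and 6.24% passed the unadjusted threshold in D vs C, DI vs I, I vs C and DI vs D. DESeq2 called 4.75% and 2.93% of its genes in D vs C and DI vs I.

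SMS, which makes spermine, ran opposite to ODC1. It had 237, 242 and 297 CPM in C, 184, 188 and 208 CPM in D, 221, 227 and 270 CPM in I and 171, 175 and 202 CPM in DI, and D did not overlap C, nor DI overlap I. Its estimates of -0.42 for D vs C and -0.39 for DI vs I (log2) passed with the block (edgeR adjusted p = 0.00197 and 0.00356) and not without it (edgeR adjusted p = 0.138 and 0.215). The block also called OAZ2 as lower in D vs C, DHPS as higher in DI vs I and PAOX as higher in both interferon gamma comparisons, and so passed 3, 3, 1 and 1 of the 13 genes where 13.9%, 10.5%, 6.02% and 4.46% of all genes passed.

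Among genes known as repressed by MYC, KLF6 and TGM2 rose with interferon gamma. KLF6, a zinc-finger factor, had 67.1, 64.8 and 76.1 CPM in C and 101, 96.2 and 113 CPM in I, with no overlap, and rose by 0.57 (log2, edgeR adjusted p = 0.0203). This call was lost without C1, C2, I1 or I3 (edgeR adjusted p = 0.139, 0.132, 0.0755 and 0.116). KLF6 was also called by DESeq2 in DI vs I, as lower, where edgeR gave -0.46 (adjusted p = 0.112, with the block 0.00297). In D vs C it was -0.31 (edgeR adjusted p = 0.244, with the block 0.0163).

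TGM2, a transglutaminase, rose from 0 to 0.149 CPM in C to 0.838 to 7.31 CPM in I (edgeR adjusted p = 0.0356), and the C libraries lay at or under 3 counts. Leaving out C1, C2, C3, I1 or I2 ended the call (edgeR adjusted p = 0.18, 0.0731, 0.154, 0.0802 and 0.125). Both calls were also lost with C and I alone in the fit (edgeR adjusted p = 0.0508 for KLF6 and 0.0764 for TGM2). In DI vs D neither gene was called without the block (edgeR adjusted p = 0.149 for KLF6 and 0.223 for TGM2), and both were with it (edgeR adjusted p = 0.00418 and 0.00185). DESeq2 called TGM2 there (adjusted p = 0.0155) and not KLF6 (adjusted p = 0.0626).

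Cofactors of the network had their calls in D vs C. Of 17 corepressors and coactivators, 2 were called in D vs C, where 1.23% of all genes were: TRRAP, the scaffold that brings histone acetyltransferases to MYC, rose by 0.68 (edgeR adjusted p = 0.0208), and EP400, the ATPase of the same acetyltransferase complex, rose by 0.63 (edgeR adjusted p = 0.0476). TRRAP had 133, 152 and 115 CPM in C and 236, 213 and 190 CPM in D, and EP400 had 142, 118 and 110 CPM in C and 218, 191 and 165 CPM in D. No library labelled D reached down to C for either gene.

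The count of 2 became 0 without C1, C3, D1 or D2 and 1 without C2, and with the block NCOR1 and HCFC1 also passed as higher and HDAC1 as lower. In DI vs I the block passed NCOR1 as higher and HDAC1 as lower, and in DI vs D EP400 as lower. The block passed 13.9%, 10.5% and 4.46% of all genes in D vs C, DI vs I and DI vs D. In DI vs I the TRRAP and EP400 estimates were 0.30 and 0.26, past no threshold (edgeR adjusted p = 0.315 and 0.483). The list's median was 0.17 for D vs C against 0.12 for DI vs I. Both edgeR and DESeq2 called 0 in DI vs I, I vs C and DI vs D. At an unadjusted p under 0.05 in edgeR, 7, 4, 0 and 1 passed in D vs C, DI vs I, I vs C and DI vs D. Over all genes 14.2%, 12.2%, 8% and 6.24% passed that.

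N-MYC turnover genes gave 1 call of 14 in D vs C, where edgeR called 1.23% of all genes. HUWE1, a ubiquitin ligase that acts on MYC proteins, had 340, 325 and 284 CPM in C and 603, 502 and 455 CPM in D, with no overlap, and rose by 0.72 (edgeR adjusted p = 0.0158). The call was lost without C2, C3 or D1. DESeq2 and the block called HUWE1, USP7 and BTRC as higher in D vs C, and the block also called PLK1, CDK1 and AURKA as lower, where they called 4.75% and 13.9% of all genes. In DI vs I the block called BTRC as higher, where it called 10.5% of all genes. In the comparisons DI vs I, I vs C and then DI vs D, edgeR called 0, with 3, 0 and 1 at an unadjusted p under 0.05, whereas DESeq2 called 1, 0 and 0. Over all genes 12.2%, 8% and 6.24% passed the unadjusted threshold, and DESeq2 called 2.93%, 2.99% and 2.28%. In D vs C 5 of the 14 genes passed the unadjusted threshold, against 14.2% of all genes. AURKA, the kinase that shields N-MYC from degradation, had 148, 150 and 199 CPM in C and 149, 108 and 136 CPM in D, which overlapped, and its difference of -0.34 passed only with the block (edgeR adjusted p = 0.42, with the block 0.0402).

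Regulators of MYCN at the RNA level gave 0 calls of 7 tested genes in edgeR in every comparison, with 1 in D vs C, 2 in DI vs I and 0 in the others at an unadjusted p under 0.05, whereas DESeq2 called 1, IGF2BP1 in D vs C. Over all genes 14.2% and 12.2% passed the unadjusted threshold in D vs C and DI vs I, and DESeq2 called 4.75% in D vs C. LIN28B and IGF2BP1, named here after their values were seen, passed with the block in both doxycycline comparisons, and IGF2BP3 passed as lower in DI vs I. The block passed 13.9% and 10.5% of all genes in D vs C and DI vs I. LIN28B, the repressor of let-7 microRNAs, had 103, 63.8 and 138 CPM in C and 59.2, 35.8 and 92.1 CPM in D, and at each number the D level was the lower. Its estimates were -0.71 and -0.81 for D vs C and DI vs I, with edgeR adjusted p of 0.504 and 0.494, and 0.00181 and 0.00104 with the block. IGF2BP1, an RNA-binding protein that stabilizes MYC mRNA, had 370, 370 and 316 CPM in C and 502, 518 and 437 CPM in D, an estimate of 0.46 (edgeR adjusted p = 0.0781, with the block 0.00283).

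The partner complex of MGA was tested through 10 genes, and edgeR called 0 in any comparison, with 0, 2, 1 and 0 at an unadjusted p under 0.05, 0 in DESeq2, and medians between -0.06 and 0.04. Over all genes 14.2%, 12.2%, 8% and 6.24% passed the unadjusted threshold in D vs C, DI vs I, I vs C and DI vs D. With the block 1 of the 10 genes passed, PCGF6, a Polycomb subunit, as lower in D vs C (log2 -0.30, edgeR adjusted p = 0.553, with the block 0.045), where 13.9% of all genes passed. The MLX arm, a parallel network of glucose-sensing factors, had 4 of 5 listed genes tested and 0 called by edgeR or DESeq2. Its target TXNIP, an inhibitor of glucose uptake, had 188, 161 and 187 CPM in C, 60.9, 189 and 71 CPM in D, 196, 223 and 223 CPM in I and 69.9, 248 and 76.9 CPM in DI. D2 lay above the C libraries and below the I libraries, DI2 lay above every other library, and numbers 1 and 3 of both groups lay below all libraries without doxycycline. The estimates of -0.74 and -0.70 did not pass (edgeR adjusted p = 0.567 and 0.658).

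**Figure D5:**
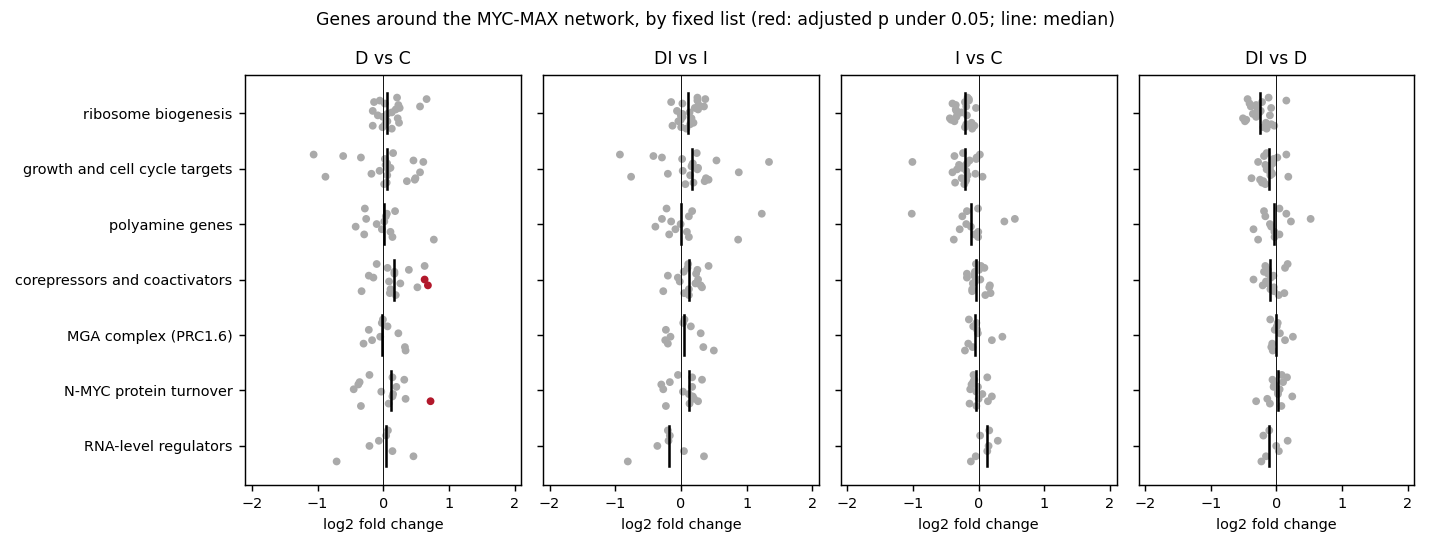
Log2 fold change of each tested gene in 7 gene lists around the network, for the 4 comparisons of groups, with a bar at each list's median and red for an edgeR adjusted p under 0.05. Ribosome biogenesis genes lie left of 0 in I vs C and nearly all do in DI vs D, and the red points are TRRAP, EP400 and HUWE1 in D vs C.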

How the data were processed

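RNA-sequencing counts of 12 libraries were analysed. The deposited values are raw counts per gene made by the authors, whole numbers for 43769 genes, of which 17165 had no count. The aligner, counting tool, strand setting and genome build are not given in the sources used here. Positions and exon lengths came from GENCODE release 29 (GRCh38), which holds all of the identifiers, and start-site windows came from RefSeq (GRCh38.p14; 9 of 10 genes matched). The authors also deposited 3 tables of fold changes and p-values from their own comparisons, made with DESeq2 per the labels. These tables hold another 18 per-sample columns with names that the labels do not explain, and none of them was used.

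Groups and replicate numbers came from the sample titles. Counts were scaled by TMM, filtered with filterByExpr (minimum count 10, 15828 genes kept) and tested two-sided with edgeR's quasi-likelihood test in one model of 4 group means (edgeR 4.0.16, limma 3.58.1, R 4.3.3), with Benjamini-Hochberg adjustment over all tested genes and a threshold of 0.05. The 5 contrasts were D vs C, DI vs I, I vs C, DI vs D and the interaction, DI vs I minus D vs C. CPM are counts scaled to the TMM-adjusted library size, and CPM per kb divide by the union of exons. With 16469832 to 21790869 counts per library, 3 counts equal 0.138 to 0.182 CPM, and network genes that were tested had at least 408 counts in every library. Replicates differed by more than counting noise (chi-square per gene 18.4 to 78.6).

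Deviations from the group means correlated between libraries of the same replicate number at 0.338 to 0.804 (18 pairs) and others at -0.628 to 0.143 (36 pairs). The numbers, which the labels share without explaining, therefore pair the libraries, and the value with the replicate number as a block is given beside each call it changes. Other alternatives were DESeq2 1.42.0, its size factors, library size alone, no low count filter, only the groups compared, and each library left out in turn. The code was tested on simulated data.

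Named genes were the 10 network genes, ARID1A, TXNIP, ODC1, AURKA, DDX1 and NBAS, up to 3 called genes per list and comparison, and the 5 genes most like MYCN. Members and lists were chosen with earlier results of these data known. Listed genes called only with the block or by DESeq2, and markers with values, were named after their values were seen. Some items are not reported here.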

Additional observations from a re-analysis of the deposited data

How the results depend on the processing

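The number of network genes called in D vs C, 1 without a block (MXD3), was 2 with the replicate block and with DESeq2 and 0 under library size alone, without a low count filter, with only the groups compared, with each library left out in turn (0 to 0) and without replicate 2. In DI vs I, I vs C and DI vs D the count of 0 became 3, 2 and 3 with the replicate block and was 0 under every other setting, and the interaction had 0 throughout. MXD3 for D vs C kept its direction in every setting, with estimates of -0.40 under library size alone (edgeR adjusted p = 0.0596) and adjusted p of 0.0894 without the filter, 0.173 with only the groups compared and 0.105 without replicate 2, and 1 sample left out gave -0.54 to -0.47. The alternative without replicate 2 was chosen after seeing the data. The replicate block changed no other network call than those named beside the results, which concern MNT, MGA, MXD3, MYCN, MYCNOS and ARID1A.

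Uncalled values near 0 changed sign in some settings, none of them called. Library size alone gave 0.064 for MYCN in DI vs I, -0.024 for MNT in I vs C and -0.017 for MXD1 in DI vs D, and moved the median of all genes to 0.085 in both doxycycline comparisons and to -0.05 in both interferon gamma comparisons. The missing filter gave -0.0025 for MXD1 in D vs C. Without replicate 2, MXI1 was -0.79 for D vs C against -0.87 for DI vs I. There DI vs I was 0.046 for MYCN, I vs C was -0.051 for MNT, 0.021 for MGA, 0.0029 for MXD3 and -0.04 for MXI1, DI vs D was -0.041 for MXD1 and -0.12 for MXI1, and the interaction was -0.079 for MXI1. Leaving out 1 library in turn gave, for D vs C, -0.11 to 0.15 for MYCN, -0.026 to 0.067 for MAX, -0.09 to 0.11 for MGA, -0.084 to 0.12 for MXD1 and -0.65 to 0.004 for MXI1. For DI vs I it gave -0.16 to 0.08 for MYCN and -0.83 to 0.21 for MXI1, and for I vs C -0.052 to 0.06 for MNT, -0.067 to 0.024 for MGA, -0.12 to 0.0064 for MXD3 and -0.13 to 0.26 for MXI1. For DI vs D it gave -0.064 to 0.028 for MAX, -0.22 to 0.045 for MNT, -0.073 to 0.07 for MXD1 and -0.53 to 0.58 for MXI1. For the interaction it gave -0.20 to 0.083 for MYCN, -0.089 to 0.19 for MYCNOS, -0.24 to 0.027 for MNT, -0.10 to 0.25 for MXD4 and -0.58 to 0.52 for MXI1. The cause of these changes was not tested. With 3 libraries a group and SE of 0.09 to 0.44 (log2), small differences could not be called. MYC lay at or near the floor of 3 counts, so no difference in it was detectable at this depth. Of all genes called for D vs C, edgeR without a block had 194, the block 2200 and DESeq2 649, and for DI vs I the counts were 106, 1658 and 446, for I vs C 350, 953 and 531, and for DI vs D 273, 706 and 405.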

Other observations

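Germline genes, which complexes with MGA are known to silence in somatic cells, were mostly silent here too. Of 13 listed genes 4 passed the filter on low counts, and edgeR called 0 in each comparison, with 1 in D vs C, 2 in DI vs I and 0 in I vs C and DI vs D at an unadjusted p under 0.05. Over all genes 14.2%, 12.2%, 8% and 6.24% passed that, in the same order. ZCWPW1, a meiotic histone reader named here after its values were seen, had 3.13, 2.63 and 2.31 CPM in C, 5.67, 8.75 and 4.81 CPM in D, 4.26, 3.82 and 1.94 CPM in I and 5.39, 6.46 and 5.09 CPM in DI. Groups with doxycycline lay above those without it in both comparisons. The D vs C estimate was 1.25 (log2, edgeR adjusted p = 0.108), past the threshold with the block (edgeR adjusted p = 0.00996), and the DI vs I estimate was 0.76 (edgeR adjusted p = 0.383, with the block 0.0575). DESeq2 called ZCWPW1 in D vs C, where it called 4.75% of its genes, and 0 of these genes in the other comparisons. MGA itself differed by 0.03 (log2) for D vs C.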
